A study of Mus musculus with 4 samples.

Results

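Follicular helper and SLAM family genes were examined in mouse Th17 cells with and without the microRNA miR-155. The 10 genes were Bcl6, Ascl2, Tox2, Pou2af1, Sh2d1a, Slamf1, Slamf6, Slamf7, Cd48 and Ly9, chosen by symbol, and the arrays measured them with 14 of the 27759 tested probes. They are 10 of the 21409 genes tested, with 1 probe for 6 genes and 2 probes for 4 genes. All 14 probes were well above background on all 4 arrays, so a filter on dim probes removed none.

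The arrays held CD4+ IL-17F RFP+ T cells of 2 genotypes, miR-155-/- (knockout, 2 arrays) and miR-155+/+ (wild type, 2 arrays). Cells of both genotypes grew with antibodies to CD3e and CD28 plus TGF-beta and IL-6, which direct Th17 differentiation, and CD4+ cells were then sorted by red fluorescence reporting IL-17F. The series describes the paired arrays of a genotype as biological replicates. Animal, culture, sex and age are not given for any array, so the p-values cover only the spread among these 4 samples, which may be partly technical.

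Follicular helper T cells help B cells in germinal centres, and the repressor encoded by Bcl6 directs their differentiation. SLAM family receptors sit on the surface of blood cells, most bind a copy of themselves on the neighbouring cell, and many carry a tyrosine-based switch motif in their tails. The adaptor SAP, encoded by Sh2d1a, docks on that motif, and T cells need it for stable contact with B cells. The genes of most SLAM receptors lie side by side on mouse chromosome 1.

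The deleted RNA is printed first, as RefSeq gives it, because its seed (bases 2 to 8, in capitals) pairs with target messages. It lies at chr16:84714143-84714165 on the plus strand of GRCm38.p6. The second line is a stretch of the Bcl6 probe, at chr16:23965179-23965208 on the minus strand of mm9, in which capitals mark the bases that pair with miRNA bases 2 to 7.
mmu-miR-155-5p: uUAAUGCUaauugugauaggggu
Bcl6 probe: tgtgtctaaactGCATTAgtgcgttgtaaa
The 6 letters GCATTA stood in 1 of the 14 probes, that of Bcl6, and in 1.01% of the 39500 probes outside lincRNA regions. The 7 letters AGCATTA, which pair with bases 2 to 8, stood in 0 of the 14 probes and in 0.385% of the 39500. Each probe was searched on its own strand only, which is that of the message for all 11 probes whose gene had a strand in RefSeq's promoter table. A match of letters is a description of the probe and does not show a site in use.

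A further pair of probes is printed because each holds letters that match the pattern of the switch motif. Capitals mark the matching triplets, which lie in a frame without a stop, and whether they are the receptor's own motif was not examined. The Slamf6 probe lies at chr1:173871767-173871826 on the plus strand and the Ly9 probe at chr1:173523555-173523614 on the minus strand of mm9.
Slamf6 probe: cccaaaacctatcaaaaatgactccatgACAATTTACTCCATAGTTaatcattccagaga
Ly9 probe: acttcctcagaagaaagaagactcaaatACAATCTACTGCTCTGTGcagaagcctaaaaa
The capital stretches share 12 of 18 bases. A pattern of this kind stood in 0.306% of the 39500 probes. Beside these, Slamf6 and Ly9 each had 1 further probe, and both probes of a gene are given in the results.

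The share of non-control spots well above background was 63.5% to 69.8%, and 0 spots were saturated. Knockout array 1 lacked the multiplicative part of the scanner software's spatial detrending, and 260 of 981 of its spots in 1 right-hand corner were over 8-fold dimmer than the median of the other arrays. In the opposite right-hand corner 0 of 668 were so on knockout array 1, and 76 of 733 were so on wild-type array 2. The probe of Sh2d1a lies in the first of these corner blocks and that of Slamf7 in the other. On the slide, row 2 held the knockout arrays and row 1 the wild-type arrays, so row and genotype cannot be told apart. Replicate 1 of both genotypes lay in slide column 2 and replicate 2 in slide column 4, so a fit with the column as a block is the same as one with the replicate number. Levels are log2 signals relative to each array's 75th percentile, differences are knockout minus wild type, and levels of different probes are not comparable.

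Of the 10 genes, Slamf1 had a lower and Ly9 a higher signal in the knockout cells at an unadjusted p under 0.05, and no gene passed correction. limma with Benjamini-Hochberg adjustment called 0 of 14 probes, as it called 0 of all 27759, the smallest adjusted p being 0.322. At an unadjusted p under 0.05, 1 of the 14 probes was lower, against 3.97% of all probes, and 1 was higher, against 6.85% of all probes. The knockout and wild-type values did not overlap for 5 of the 14 probes, against 47.0% of all probes. Of these, 1 was higher in the knockout, against 24.9% of all probes, and 4 were lower, against 22.1%. By the brightest probe of each gene, 3 of 10 genes did not overlap (47.5% of all genes), 1 higher (25.1%) and 2 lower (22.4%). These shares are close to the background or below it. The median difference was -0.03 over the 14 probes and 0.014 over all probes. Of all probes with an unadjusted p under 0.05, 63.3% were higher in the knockout. With each array shifted by its median instead, that share was 24.2% and the median of all probes was -0.15, and with quantile scaling the share was 49.0%. The smallest two-sided p that an exact permutation test of 1 probe allows in this design is 0.333.

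**Figure D1:**
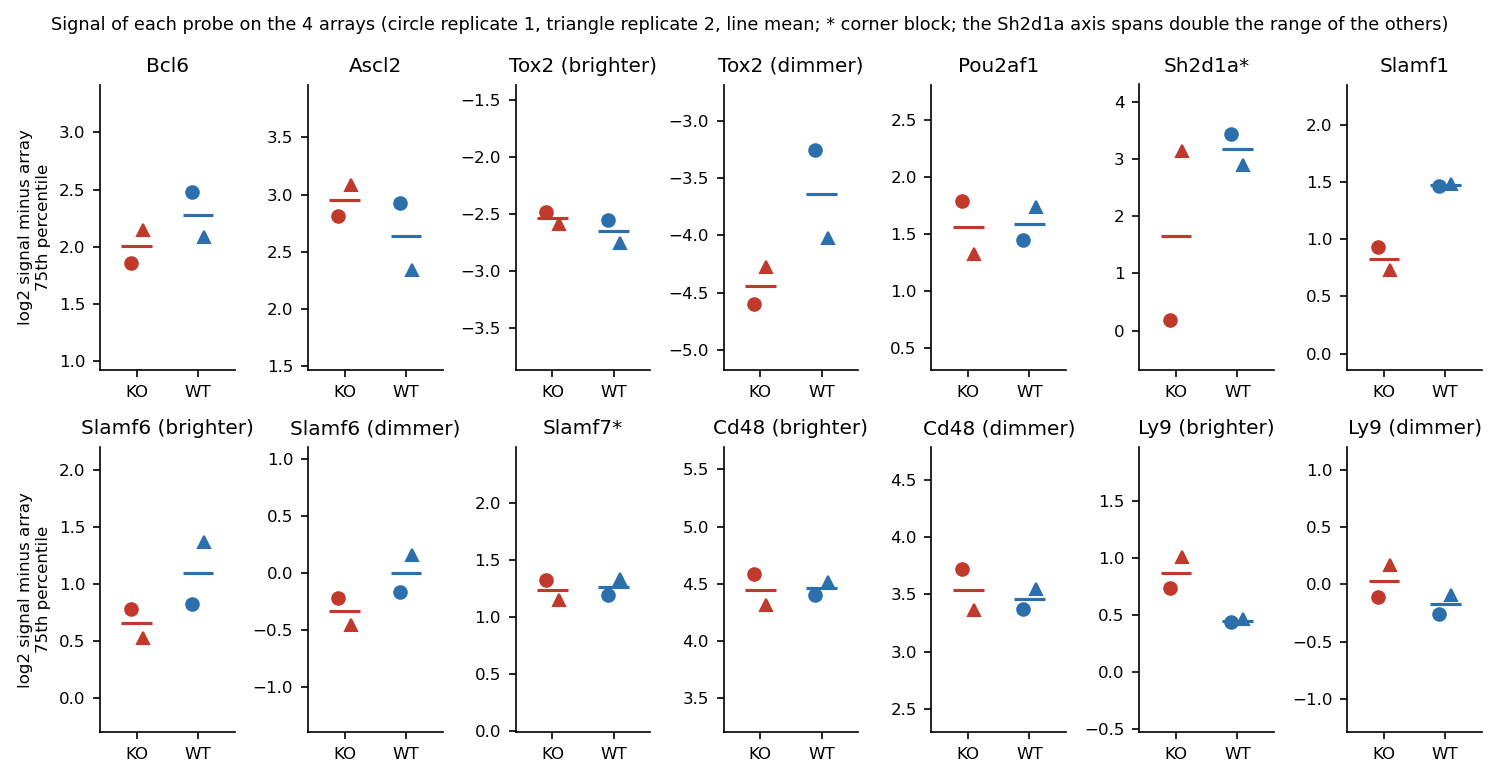
Level of each of the 14 probes on every array (y axis: log2 signal minus the array's 75th percentile; knockout left, wild type right; points are arrays, lines are means of 2). Slamf1 lies lower on both knockout arrays and the brighter Ly9 probe higher, while knockout replicate 1 stands far below the other arrays for Sh2d1a.

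Slamf1, whose product SLAM (CD150) is a self-binding receptor that shapes cytokine production by T cells, had the smallest unadjusted p of the 14 probes. Its level was 0.93 and 0.73 on the knockout arrays, against 1.47 and 1.48 on the wild-type arrays. Both knockout values lay below both wild-type values, and the wild-type arrays differed by less than the knockout arrays did. The difference was -0.65 ± 0.13 (SE, n = 2 each), a 1.56-fold lower signal, with a 95% interval of -1.01 to -0.28 and a limma adjusted p of 0.357 (unadjusted 0.00787). Over 15 other ways of processing, the unadjusted p stayed between 0.00292 and 0.044 and the adjusted p between 0.178 and 0.711. In bulk samples such as these, fewer cells of a type and less RNA per cell cannot be told apart. Within slide column 2 the difference was -0.54 and within column 4 it was -0.75, and with the column as a block the unadjusted p was 0.0233. The probe lies at chr1:173730343-173730402 on mm9, outside the corner blocks.

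Ly9, which encodes the receptor SLAMF3 (CD229), had higher values in the knockout. Its brighter probe was at 0.74 and 1.01 on the knockout arrays, against 0.44 and 0.46 on the wild-type arrays. The groups did not overlap for this probe, and the difference was 0.42 ± 0.15 (SE, n = 2 each), with a 95% interval of 0.01 to 0.83, an unadjusted limma p of 0.0459 and an adjusted p of 0.454. Under 9 of 15 alternatives the unadjusted p was no longer under 0.05, among them median scaling, where the difference was 0.26, and the slide column as a block, where the p was 0.0793. Within slide columns 2 and 4 the differences were 0.30 and 0.54. The dimmer Ly9 probe, the one with the motif match printed above, was at -0.11 and 0.17 on the knockout arrays, against -0.26 and -0.09 on the wild-type arrays. These values overlapped, and the difference was 0.21 ± 0.16 (SE).

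Slamf6, which encodes the receptor Ly108 and takes part in the adhesion of T cells to B cells, had lower values in the knockout on both probes. The probe with the motif match was at 0.78 and 0.53 on the knockout arrays, against 0.82 and 1.37 on the wild-type arrays. The higher knockout value and the lower wild-type value were close, and the wild-type arrays stood further apart. The difference was -0.44 ± 0.24 (SE, n = 2 each), with a 95% interval of -1.10 to 0.22 and a limma adjusted p of 0.541, and the unadjusted p was under 0.05 in 4 of 15 alternatives. The other probe was at -0.22 and -0.45 on the knockout arrays, against -0.17 and 0.16 on the wild-type arrays, a difference of -0.33 ± 0.18 (SE). Without wild-type replicate 2, the differences of the probes were -0.16 and -0.17. Within slide column 2 they were -0.04 and -0.05, and within column 4 -0.84 and -0.61.

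Cd48 encodes a GPI-anchored SLAM family protein that binds CD2 and 2B4, and its signals overlapped between genotypes. The brighter probe was at 4.59 and 4.31 on the knockout arrays, against 4.40 and 4.52 on the wild-type arrays. Its difference of -0.01 had a 95% interval of -0.44 to 0.41. The other probe was at 3.72 and 3.37 on the knockout arrays, against 3.37 and 3.55 on the wild-type arrays, with a difference of 0.08 that turned to -0.08 with median scaling. The 95% interval of this dimmer probe was -0.41 to 0.57. Both intervals hold 0 and differences in either direction, which 4 arrays could not tell apart.

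Slamf7, which encodes the self-binding receptor CRACC of cytotoxic cells and plasma cells, gave overlapping values as well. Its level was 1.32 and 1.14 on the knockout arrays, against 1.19 and 1.33 on the wild-type arrays. The difference of -0.03 had a 95% interval of -0.41 to 0.35, and it was 0.0047 with quantile scaling and 0.029 with normexp background correction. The Slamf7 spot lies in a corner block. Within 6 rows and columns of it, 0 of 73 neighbours with signal on the other arrays were over 8-fold dimmer than their median on knockout array 1, and 12 of 84 were so on wild-type array 2. The effect of this block on the Slamf7 value was not tested.

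The SLAM genes of chromosome 1 are shown by distance in the plot of probes in gene order. From Ly9 through Slamf7, Cd48, Slamf1 and Cd84 to Slamf6 the probes span 355 kb, and Cd244 lies 3.36 kb before Ly9. The lower values stood at Slamf1 and Slamf6, 212 and 353 kb from the first Ly9 probe. Higher ones stood at Ly9 and at the brighter Cd84 probe (0.32), which lies between Slamf1 and Slamf6. The dimmer Cd84 probe was at -0.16 and Cd244 at 0.09, so the signs did not follow gene order. The log2 ratio of Slamf1 to Ly9 within an array does not depend on shifts of a whole array. It was 0.20 and -0.28 on the knockout arrays, against 1.03 and 1.02 on the wild-type arrays. The ratio was thus 1.06 lower on the log2 scale in the knockout (a value of -1.06, or 2.09-fold), and the genotypes did not overlap. This pair was picked after the values were seen, and no test was applied to it.

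**Figure D2:**
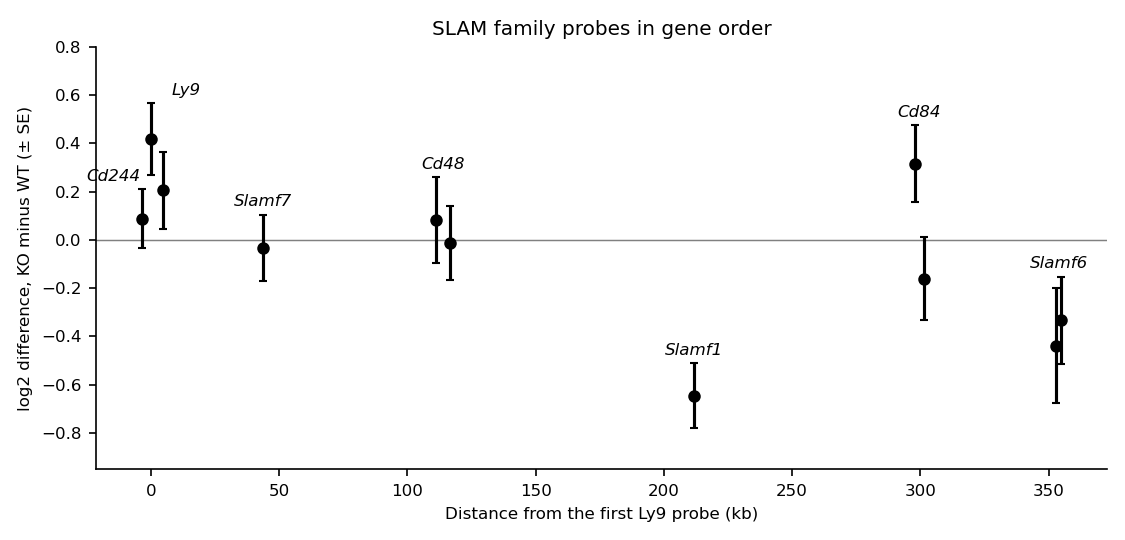
Difference between knockout and wild type (y axis: log2, knockout minus wild type; bars are SE) for the tested SLAM family probes by distance from the first Ly9 probe (x axis, kb). Slamf1 (-0.65) and Slamf6 (-0.44 and -0.33) lie below 0 and Ly9 (0.42 and 0.21) above it, and the Cd84 probes (0.32 and -0.16) differ in sign.

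Sh2d1a, the gene of the adaptor SAP, gave a difference that rested on 1 array. Its level was 0.18 and 3.14 on the knockout arrays, against 3.44 and 2.90 on the wild-type arrays. Knockout replicate 1 stood far below the other arrays, while knockout replicate 2 lay between the wild-type values. The fitted difference was -1.51 ± 1.06 (SE, n = 2 each) with a limma adjusted p of 0.603, and without knockout replicate 1 it was -0.03. The spot lies in a corner block, where 28 of 87 neighbours within 6 rows and columns were over 8-fold dimmer on knockout array 1 than the median of the other arrays, and 0 of 87 were so on knockout array 2. The scanner's fitted surface at the Sh2d1a spot on knockout array 1 was 0.316 of the array average. Divided by it, the level there was 1.80 and the difference -0.70. The level on knockout array 2, whose neighbours were not dim, lay within the wild-type range.

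**Figure D3:**
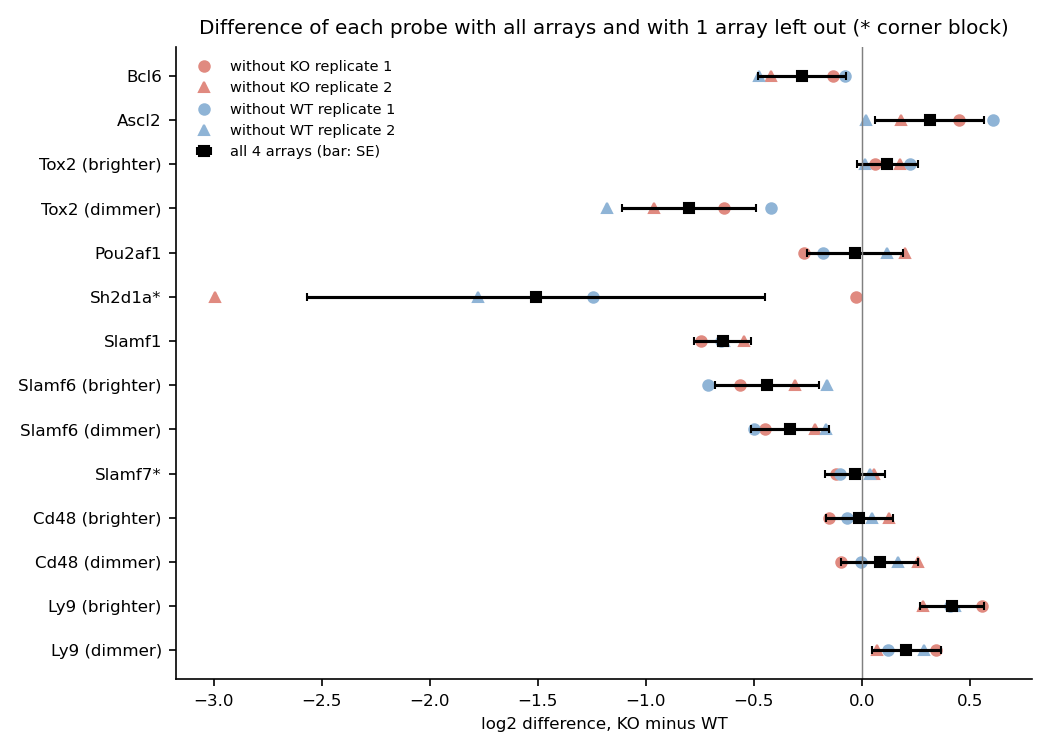
Difference of each of the 14 probes (x axis: log2, knockout minus wild type) from all 4 arrays (black squares, bars are SE) and with 1 array left out (coloured points). Slamf1 lies between -0.75 and -0.55 with 1 array left out, where its sign could not turn because its groups did not overlap. Sh2d1a moves from -1.51 to -0.03 without knockout replicate 1.

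None of the transcription factor genes reached an unadjusted p under 0.05. Bcl6, which encodes the repressor that directs follicular helper cells, was at 1.86 and 2.15 on the knockout arrays, against 2.48 and 2.08 on the wild-type arrays. The values overlapped, and the difference was -0.28 ± 0.20 (SE, n = 2 each), with a 95% interval of -0.84 to 0.29 and a limma adjusted p of 0.617. It was -0.08 without wild-type replicate 1 and -0.47 without wild-type replicate 2. The Bcl6 probe is the one whose letters pair with bases 2 to 7 of the deleted microRNA.

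Ascl2 encodes a basic helix-loop-helix factor that raises CXCR5 early in follicular helper differentiation. Its level was 2.82 and 3.08 on the knockout arrays, against 2.93 and 2.34 on the wild-type arrays. The values overlapped, and wild-type replicate 2 was the low one. The difference was 0.31 ± 0.25 (SE, n = 2 each), with a limma adjusted p of 0.642, and it was 0.02 without wild-type replicate 2 and 0.61 without wild-type replicate 1.

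Tox2, a high mobility group box factor of follicular helper cells, had probes that disagreed. The brighter was at -2.48 and -2.59 on the knockout arrays, against -2.55 and -2.76 on the wild-type arrays, a difference of 0.12 that turned to -0.04 with median scaling. The dimmer was at -4.60 and -4.28 on the knockout arrays, against -3.26 and -4.02 on the wild-type arrays. Its knockout values lay 0.69 and 0.63 above the lowest signal well above background on the same array, and its difference of -0.80 ± 0.31 (SE, limma adjusted p of 0.472) was -0.14 with normexp background correction. Both knockout values are thus near the limit of measurement. The scanner software marked this spot as found on 0 of 4 arrays. That mark did not follow signal alone, since the brighter Slamf6 probe, well above background on all 4 arrays, was found on 2.

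Pou2af1 encodes OCA-B, a coactivator that binds the Oct factors and is best known from B cells. It was at 1.79 and 1.32 on the knockout arrays, against 1.44 and 1.74 on the wild-type arrays. The difference of -0.03 had a 95% interval of -0.65 to 0.58. The Oct factor genes Pou2f1 and Pou2f2 differed by -0.09 ± 0.12 and 0.006 ± 0.12 (SE) on their brightest probes. Among B cell markers, Ms4a1 (CD20) and Fcrla were too dim to be tested in either genotype.

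Among other SLAM genes and their signalling partners, 9 of 12 could be tested, and Inpp5d was the 1 with an unadjusted p under 0.05. It encodes the phosphatase SHIP1, which can be recruited to SLAM receptors and is a reported miR-155 target. Its level was 4.29 and 4.13 on the knockout arrays, against 3.74 and 3.72 on the wild-type arrays. Both knockout arrays were higher, by 0.49 ± 0.13 (SE), with a limma adjusted p of 0.388. The count of higher genes in this list was 0 with median scaling, with the deposited matrix, without wild-type replicate 1 and without knockout replicate 1, and 2 without knockout replicate 2. Thus 1 of 9 genes was higher, against 6.92% of all genes, and 0 of 9 were lower, against 3.94% of all genes. The receptor gene Cd244 (2B4) differed by 0.09, or -0.073 with median scaling, and Cd84 by 0.32 and -0.16 on its probes.

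The kinase genes Fyn and Prkcq, which act downstream of SAP, differed by -0.06 and -0.10. The phosphatase genes Ptpn6 and Ptpn11 differed by -0.15 and -0.06, and Cd2, whose product binds CD48, by -0.14. Slamf8 differed by 0.93 ± 0.66 (SE), but only 1 of 2 wild-type arrays was well above background. Sh2d1b1 and Sh2d1b2, which encode adaptors related to SAP, and Slamf9 were well above background on 0 of 4 arrays. The median over the 9 genes was -0.06, against 0.015 over all genes.

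Other genes of the follicular helper program included several with lower knockout signals. Of 21 tested, 6 had an unadjusted p under 0.05 with a lower signal and 0 with a higher one, with 0 passing limma's adjusted threshold. The 6 were Tcf7, Cd200, Btla, Lef1, Il6ra and Cd40lg. The Cd200 and Btla probes lie near each other, at chr16:45382387-45382446 and chr16:45252905-45252964 on mm9. The deleted microRNA is on the same chromosome. Whether the differences of Cd200 and Btla are separate from each other or from this linkage was not tested. Of all genes, 3.94% were lower and 6.92% higher at that p. The list was chosen with earlier results of these data known, so its share against theirs is a description and no test. By sign alone, 12 of the 21 were lower and 9 higher, against 10236 lower and 11173 higher of all 21409 genes. The genotypes did not overlap for 10 lower genes, against 22.4% of all genes, and for 4 higher ones, against 25.1%. The list's median was -0.20, against 0.015 over all genes. The count of 6 was 8 with median scaling and 1 to 5 with 1 array left out.

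Tcf7, whose product TCF-1 acts upstream of Bcl6, was at 2.48 and 2.63 on the knockout arrays, against 3.22 and 3.20 on the wild-type arrays. Both of its probes were lower on both knockout arrays, by differences of -0.66 and -0.74, with limma adjusted p of 0.347 for the brighter. Cd200, an inhibitory ligand carried by follicular helper cells, was at 2.63 and 2.51 on the knockout arrays, against 3.09 and 3.21 on the wild-type arrays, a difference of -0.58 ± 0.13 (SE). Btla, an inhibitory receptor, was at 1.84 and 1.89 on the knockout arrays, against 2.28 and 2.46 on the wild-type arrays, a difference of -0.51 ± 0.13 (SE) that was -0.33 with knockout array 1 detrended. The groups did not overlap for any of these 3 genes, all under the unadjusted p above. Of all genes, 22.4% did not overlap and were lower in the knockout. Lef1, a partner of TCF-1, differed by -0.50, the IL-6 receptor gene Il6ra by -0.40 and the CD40 ligand gene Cd40lg, close to background, by -0.40.

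Further genes of the list had larger p-values. Cxcr5, the homing receptor for B cell follicles, differed by -0.20 ± 0.17 (SE), Icos by 0.11, Il21 by 0.09 and Maf by 0.13 on its brighter and -0.19 on its dimmer probe. Pdcd1, the PD-1 gene, was at -0.37 and 1.56 on the knockout arrays, against 2.22 and 2.02 on the wild-type arrays. Both knockout values were below both wild-type values. It lies in the same corner block as Sh2d1a, its lowest value is again on knockout replicate 1, and the part of the block in its difference of -1.53 was not tested.

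Among 14 genes that oppose the follicular helper program or that its cells lower, 2 had an unadjusted p under 0.05 and were higher, against 6.92% of all genes, and 2 were lower, against 3.94%. Prdm1, the gene of Blimp-1, with which BCL6 is mutually repressive, was at 1.32 and 1.09 on the knockout arrays, against 0.36 and 0.01 on the wild-type arrays. Both knockout arrays were higher, by 1.02 ± 0.18 (SE, n = 2 each) or 0.85 to 1.20 with 1 array left out, and limma's adjusted p was 0.331 (unadjusted 0.00476). The log2 ratio of Bcl6 to Prdm1 within an array was 0.54 and 1.05 on the knockout arrays, against 2.12 and 2.07 on the wild-type arrays. The change in that ratio was -1.30, and as above the pair was picked with the values known and was not tested.

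Others under that p were Il7r, the IL-7 receptor gene, at 0.49, and S1pr1, which lets T cells leave lymphoid tissue, at -0.49. Foxp1, a brake on follicular helper differentiation, was also under it, at -0.60 on its brightest probe. Its other probes differed by -0.50, -0.24, 0.04 and 0.35. Id2, Klf2 and Il2ra, which restrain the program, differed by -0.11, -0.19 and 0.37. Bcor, which encodes a co-repressor of BCL6, lay in a corner block, and its level was 0.71 and 3.03 on the knockout arrays, against 3.40 and 3.29 on the wild-type arrays.

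**Figure D4:**
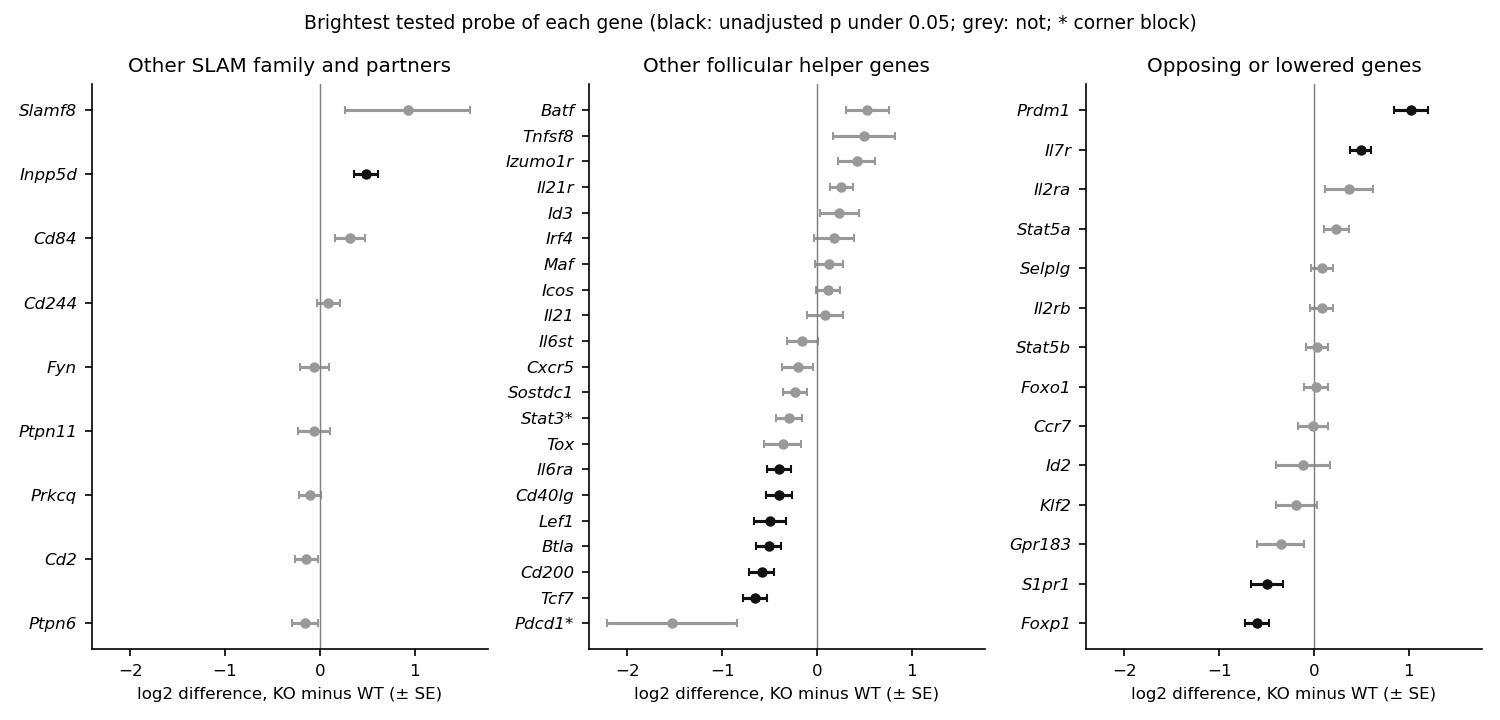
Difference between knockout and wild type (x axis: log2, knockout minus wild type; bars are SE) for the brightest tested probe of each related gene, in 3 panels by list, with genes under an unadjusted p of 0.05 in black. Tcf7, Cd200, Btla, Lef1, Il6ra and Cd40lg lie below 0 in the middle panel, and Prdm1 (1.02) and Il7r (0.49) lead the right panel.

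Markers of other cells were measured beside these genes. Of 10 pan T cell genes 0 had an unadjusted p under 0.05, with Cd4 at -0.16 and Cd3e at -0.06. Of 7 tested CD8 and natural killer cell markers 4 were higher at that p, against 6.92% of all genes, namely Klra8 (1.66), Cd8a (1.30), Eomes (1.05) and Fcer1g (0.94). The other 3 had lower values, Klrd1 (-0.47), Klrk1 (-0.13) and Cd8b1 (-0.13), and the defining natural killer genes Ncr1 and Klrb1c were too dim to be tested. The summed level of the 7, as signal over each array's 75th-percentile signal, was 13.2 and 16.5 on the knockout arrays, against 16.6 and 20.0 on the wild-type arrays, most of it from the Klrd1 probe. Without Klrd1 the sum was 2.64 and 2.86 on the knockout arrays, against 1.68 and 1.68 on the wild-type arrays, so its direction turned. Of 8 tested B cell markers 6 were above 0 and 2 below it in their differences, whose median was 0.30. At that p 1 was higher (6.92% of all genes), Cd79b (1.16), and 2 were lower (3.94% of all genes), Cd22 (-0.60) and Ebf1 (-0.97), with Cd79b and Cd22 in corner blocks. The summed level of the 8 was 4.70 and 5.16 on the knockout arrays, against 4.23 and 3.25 on the wild-type arrays. Without Cd79b it was 1.62 and 1.64 on the knockout arrays, against 2.39 and 2.07 on the wild-type arrays, the opposite direction. Of 7 tested myeloid markers 0 were under that p, 6 with higher values, such as Itgax (0.85) and Cd68 (0.30), and Cd14 (-0.67) with a lower one, with a median of 0.27 and a summed level of 19.0 and 19.4 on the knockout arrays, against 18.1 and 17.8 on the wild-type arrays. The part of such cells in the differences of Slamf1, Ly9 and the follicular helper genes was not tested.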

How the data were processed

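For each 1-colour (Cy3) array the authors deposited the scanner output. The submitters' processing notes name Agilent Feature Extraction, version 10.5.1.1. The processed signal is an intensity after background subtraction and detrending, per the file headers, and raw mean and local background intensity columns served the normexp alternative. The fitted detrending surface is a ratio, per the file headers. A matrix of log2 values was also deposited, processed by steps not given in the sources used here, which differed from the log2 processed signal by 1 constant per array within 0.001 for 100% of probes and served as an alternative.

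Control and outlier spots were left out, spots of a probe were averaged, and from each log2 signal the 75th percentile of its array was subtracted. The 16181 lincRNA probes were left out, and a probe was tested if well above background in both samples of 1 genotype or more. The genotypes were set against each other by lmFit and eBayes of limma (version 3.58.1, under R 4.3.3), Benjamini-Hochberg adjusted over 27759 probes, with a threshold of 0.05. A list counts each gene once, by its brightest tested probe. The fit was tested on simulated data with the same spread for every probe and changes larger than the differences reported here. That test therefore does not bear on differences of the reported size. The 4 arrays shared 1 slide and 1 scan. Coordinates are mm9, per the file headers, and 2 of 106 list genes were found through RefSeq synonyms (GRCm38.p6). The genes, lists and named genes (all members and SLAM partners, preset examples, and list genes under an unadjusted p of 0.05) were chosen with earlier results of these data known. Some items of these lists are not reported here.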

Additional observations from a re-analysis of the deposited data

How the results depend on the processing

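Of the 14 probes, 9 kept their direction under every alternative that gave them a value, out of 15 alternatives, 14 of them planned and 1 (without corner blocks, where Sh2d1a and Slamf7 have no value) added after the data were seen. Differences were the same by design without the filter on dim probes, with 1 probe per gene, with lincRNA probes kept and without corner blocks. The same held for the replicate block and an intensity-trended prior, and the deposited matrix gave the differences of median scaling. Direction could turn only under the rest, and with 1 array left out only for probes whose groups overlap in the main setting. Signs turned for differences near 0. The brighter Tox2 probe was at -0.042 with median scaling and the deposited matrix and at -0.0089 with quantile scaling. The dimmer Cd48 probe was at -0.078 with median scaling and the deposited matrix, and the brighter at 0.052 with knockout array 1 detrended. Slamf7 was at 0.0047 with quantile scaling, 0.029 with normexp and 0.015 with knockout array 1 detrended, and Cd244 at -0.073 with median scaling and the deposited matrix. With 1 array left out, Pou2af1 ranged from -0.27 to 0.20, Slamf7 from -0.12 to 0.056, and the dimmer and brighter Cd48 probes from -0.095 to 0.26 and from -0.15 to 0.13.

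The count of probes past limma's adjusted p was 0 under 13 of the 15 alternatives and ranged from 0 to 149 with 1 array left out (45 without wild-type replicate 1, 149 without knockout replicate 2), none of them among the 14. At an unadjusted p under 0.05, 962 (median scaling) to 4386 (normexp) probes were higher against 1901 in the main setting, and 492 to 3011 lower against 1102. The replicate block gave 0 adjusted calls and an unadjusted limma p of 0.0233 for Slamf1. Same-numbered arrays share a slide column, and their deviations correlated at 0.018 across probes. Signal over background limits the dimmer Tox2 probe, and 2 arrays a genotype limit the precision of all 14. The Sh2d1a spot lies in the dim corner of knockout array 1, and the part of that corner in its difference was not tested.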
